A study of Homo sapiens with 39 samples.

Results

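The BCL2 family of cell death regulators was examined through 10 genes in 7 human acute myeloid leukemia cell lines, with and without exposure to tamibarotene. The genes were 4 anti-apoptotic members (BCL2, BCL2L1, MCL1 and BCL2A1), 4 BH3-only members (BCL2L11, BIK, BMF and BBC3) and 2 effectors (BAX and BAK1). They were chosen by name, with earlier results of these data known, and they are 10 of the 18132 genes tested. All 47 probe sets whose annotation names one of these symbols alone were used, of 49395 on the array. The main probe set of a gene was its brightest one, by the mean of the 39 arrays, and the others were examined separately.

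Tamibarotene, also named SY-1425, is a synthetic agonist of retinoic acid receptor alpha, a ligand-controlled transcription factor. The treated groups were Sig-M5, OCI-AML3, MV-4-11, NOMO-1, KG-1a, Kasumi-1 and OCI-M1 cells exposed for 24 h to tamibarotene at a final 50 nM (100 nM as added), with 3 arrays in each line. The vehicle groups were the same lines exposed to DMSO for 24 h, with 3 arrays in 4 of the lines and 2 arrays in Kasumi-1, KG-1a and Sig-M5. Each line is a single established culture, and the labels give no genotype for it and do not say whether replicates were separate cultures, so the errors may be technical. RNA came from whole cultures on Affymetrix PrimeView arrays, so fewer cells of a type and less RNA per cell cannot be told apart.

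Proteins of this family decide whether the outer membrane of the mitochondrion stays sealed. Anti-apoptotic members hold the effectors BAX and BAK1 in check, BH3-only members relieve that hold or activate the effectors directly, and active effectors form pores that release cytochrome c and start the caspase cascade. Acute myeloid leukemia cells commonly depend on BCL2 or MCL1 to survive, and BCL2 is the target of the drug venetoclax.

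Values are the authors' normalized log2 intensities, and differences are tamibarotene minus vehicle on the log2 scale with the standard error (SE) of the fit. A difference was called when its adjusted p was under 0.05 in limma with Benjamini-Hochberg adjustment over all 18132 genes. Array medians lay between 5.01 and 5.17. Beta-actin 3' minus 5' probe signal, a measure of RNA integrity that rises as transcripts shorten, was -0.02 to 0.34 on 34 arrays. It stood at 0.31 to 0.34 on the Sig-M5 tamibarotene arrays against 0.81 and 1.89 on the Sig-M5 vehicle arrays. It was also higher on 1 Kasumi-1 vehicle array, at 1.18, and on 2 OCI-M1 vehicle arrays, at 0.52 and 0.56. Its part in the differences of those lines was not tested beyond the values given beside them. The neutrophil elastase gene ELANE averaged 12.21 to 13.24 in the vehicle arrays of 5 lines, but 4.53 in KG-1a and 4.65 in OCI-M1. MPO, another of the myeloid markers tested, averaged 12.90 to 13.87 on vehicle arrays of Kasumi-1, NOMO-1 and Sig-M5. Its vehicle means were 6.52 in MV-4-11, 5.05 in OCI-AML3, 4.90 in KG-1a and 4.03 in OCI-M1. OCI-M1 vehicle arrays instead carried the erythroid factor KLF1 at 11.32, and KG-1a vehicle arrays the stem cell marker CD34 at 9.67. None of the 3 lymphoid and 4 adherent-cell markers tested was called between tamibarotene and vehicle in any line. The T-cell gene CD3E averaged 4.36 to 4.66 on vehicle arrays. The adherent-cell marker EPCAM averaged 9.22 on Kasumi-1 vehicle arrays and 2.65 to 3.34 on those of the other lines. Of the 9 myeloid and progenitor and 3 erythroid markers, 5 and 2 genes were called in at least 1 line. The progenitor receptor gene FLT3 rose in OCI-AML3 (2.01) and Sig-M5 (1.66), where the monocyte marker CD14 fell (-1.62 and -0.84). PTPRC rose (1.42) and GATA1 fell (-0.51) in Sig-M5, ELANE (-0.42) and KLF1 (-0.50) fell in MV-4-11, and CD34 fell in Kasumi-1 (-1.14). The part of these marker changes in the members' differences was not tested.

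Of 70 pairs of member and line, 9 rose and 4 fell with tamibarotene and 57 were not called. Over all genes, 8.14% of such pairs were called. The calls gathered in Sig-M5 and OCI-AML3, and no member was called in Kasumi-1 or OCI-M1. BH3-only genes, with 28 of the 70 pairs, made 6 of the 9 rises and 1 of the 4 falls. Of those 6 rises, 3 were of BMF on 1 of its 4 probe sets. Only BIK in OCI-AML3 and BCL2L11 in Sig-M5 held under all alternatives. The shares of all genes in each direction are given by line below. Anti-apoptotic genes made 3 rises, all of BCL2A1, and 3 falls, 2 of them of BCL2. The effectors were called in none of their 14 pairs by their main probe sets, though BAK1 was called under some alternatives given below. At least 2-fold changes were 3 rises (BCL2A1 and BCL2L11 in Sig-M5, BIK in OCI-AML3) and 2 falls (BCL2 in OCI-AML3 and MV-4-11), where 0.867% of all pairs rose and 0.422% fell that far.

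By line, Sig-M5 had 3 of 10 members up and 2 down, where 8.5% of all genes rose and 18.4% fell. OCI-AML3 had 3 up and 1 down, where 5.5% of all genes rose and 6.36% fell. MV-4-11 had 1 up and 1 down, where 4.32% rose and 3.4% fell. NOMO-1 had 1 up, where 2.77% of all genes rose and 0.711% fell, and KG-1a had 1 up, where 1.21% rose and 1.88% fell. Kasumi-1 had 0 of 10 members called in limma, where 0.48% of all genes rose and 2.36% fell. OCI-M1 also had 0 of 10 called in limma, where 0.7% rose and 0.386% fell. At an unadjusted p under 0.05 in limma there were 3 members in Kasumi-1 and 4 in OCI-M1. The share of all genes at that looser threshold was not computed, so these 2 counts have no background here. The median change of the 10 members was -0.07 in Sig-M5 and 0.13 in OCI-AML3, beside -0.10 and -0.03 over all genes.

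**Figure D1:**
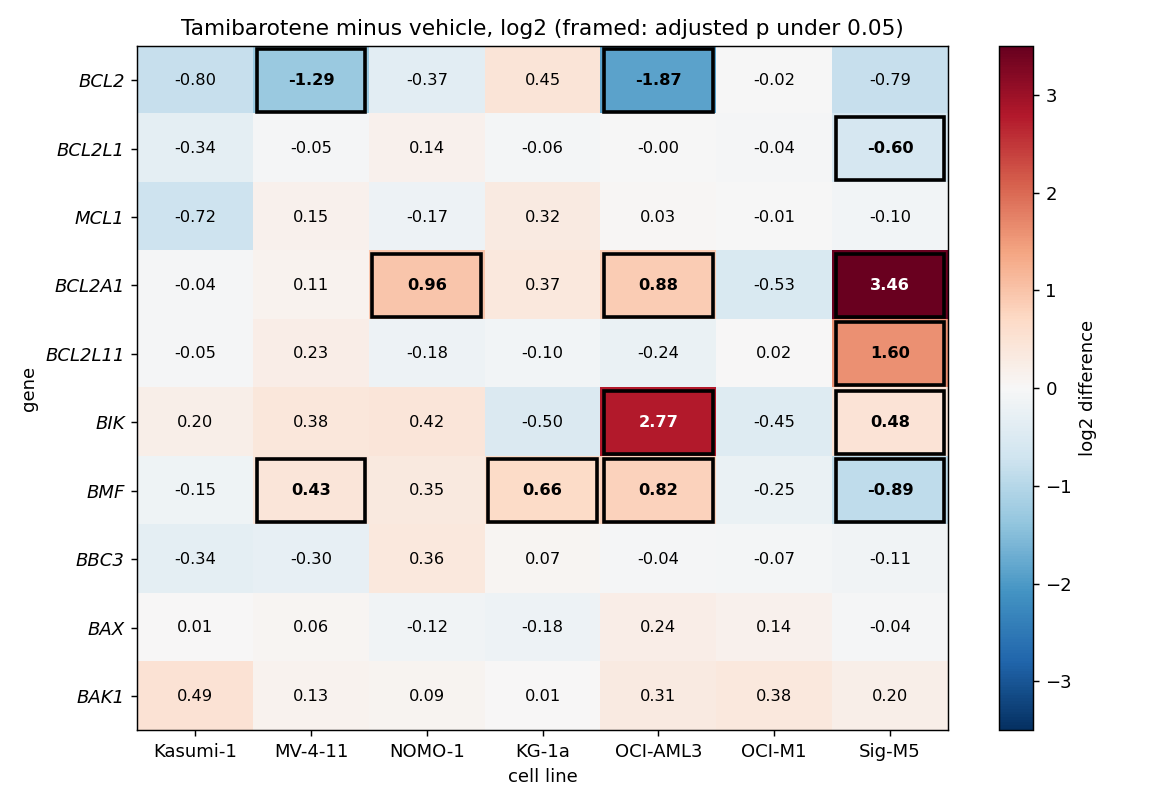
Tamibarotene minus vehicle (log2, colour and number in each cell) for the 10 members, grouped by role, in the 7 lines. The marked cells are the 13 differences called by limma: 5 lie in Sig-M5, 4 in OCI-AML3, and none in Kasumi-1 or OCI-M1.

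Before any drug, the lines already differed in every member. The moderated F test over the 7 vehicle groups called 10 of 10 members, as it did 78.6% of all genes. BIK had the widest spread of vehicle levels, at 4.39 log2 between its highest and lowest line, and BAK1 the narrowest, at 1.39. Each comparison below is of a gene's main probe set across lines unless another is named, since levels of different probe sets cannot be set against each other. Other probe sets of a gene can order the lines differently. Over all genes 43.4% of comparisons between a pair of lines were called.

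Among the anti-apoptotic genes, BCL2 vehicle arrays averaged 9.03 ± 0.18 (SD, n = 2) in Sig-M5, the highest, and 5.41 ± 0.58 (SD, n = 3) in OCI-M1, the lowest. Sig-M5 stood apart from the next line, MV-4-11 at 8.04 (difference 0.99, adjusted p = 0.0125 in limma), and OCI-M1 from NOMO-1 at 6.65 (1.24, adjusted p = 0.000744). No neighbours among the 5 lines in between differed beyond the threshold. BCL2 probe sets 11721377_x_at (8.95) and 11721374_a_at (5.40) also put Sig-M5 highest. MV-4-11 was highest on 11738350_a_at (6.99, Sig-M5 6.68) and 11738351_x_at (6.71, Sig-M5 6.48). OCI-AML3 was highest on 11721375_a_at (6.83, Sig-M5 6.18). MCL1, by its main probe set, was also highest in Sig-M5, at 11.29, and lowest in KG-1a, at 8.87. The Sig-M5 level exceeded OCI-AML3 at 10.41 by 0.88 (adjusted p = 0.00163 in limma). Sig-M5 was highest on 11715482_a_at (9.89) and 11715485_a_at (8.87) too, and OCI-AML3 (7.08) was just above it (7.05) on 11715486_x_at. It was instead the lowest line on 11715484_a_at (6.54) and 11715487_a_at (6.87). The Sig-M5 vehicle arrays are those with actin differences of 0.81 and 1.89. BCL2L1 was highest in OCI-M1, at 8.87, exceeding Kasumi-1 at 8.18 (adjusted p = 0.00676), and lowest in NOMO-1, at 6.69. BCL2A1 vehicle levels set NOMO-1, at 6.54, apart from every other line, the next being KG-1a at 4.68 (difference 1.87, adjusted p = 4.18e-10). Its vehicle means in Kasumi-1, Sig-M5 and MV-4-11 (3.99, 3.80 and 3.09) lay below 4.06, the level under which the dimmest 25% of genes lie.

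Of the BH3-only genes, BIK, BBC3 and BCL2L11 each had 1 step of over 1 log2 unit between neighbouring lines. BIK vehicle means were 9.74 in NOMO-1, 9.64 in Kasumi-1 and 9.36 in MV-4-11, which did not differ from their neighbours in that order. They then dropped by 2.93 to 6.43 in OCI-AML3 (adjusted p = 8.13e-18), with OCI-M1 at 6.03 (adjusted p = 0.0140), KG-1a at 5.53 (adjusted p = 0.00654 against OCI-M1) and Sig-M5 at 5.35 below it. BBC3 vehicle levels were 7.84 to 8.53 in 5 lines and 5.75 and 5.44 in Kasumi-1 and KG-1a, a step of 2.10 (adjusted p = 7.26e-11). BCL2L11 stood at 9.05 in OCI-AML3 and 9.004 in OCI-M1, 1.69 above Kasumi-1 at 7.31 (adjusted p = 2.35e-09), and the 5 lower lines did not differ from their neighbours down to Sig-M5 at 6.91. BMF was highest in Sig-M5 vehicle arrays, at 7.56, then in MV-4-11, at 6.57 (0.99 lower, adjusted p = 1.42e-07), and next in KG-1a, at 5.74 (0.83 lower, adjusted p = 4.24e-06). Below KG-1a no neighbours differed, down to OCI-AML3 at 5.34. Of the effectors, BAX was highest in MV-4-11, at 10.73, and lowest in Kasumi-1, at 8.55. BAK1 was highest in KG-1a, at 9.14, and lowest in Sig-M5, at 7.74, and no neighbours in its order differed. NOMO-1 was instead lowest on BAK1 probe sets 11752413_a_at (7.67), 11746208_a_at (7.46) and 11732515_x_at (7.39), and Kasumi-1 on the dim 11762913_a_at (4.15).

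**Figure D2:**
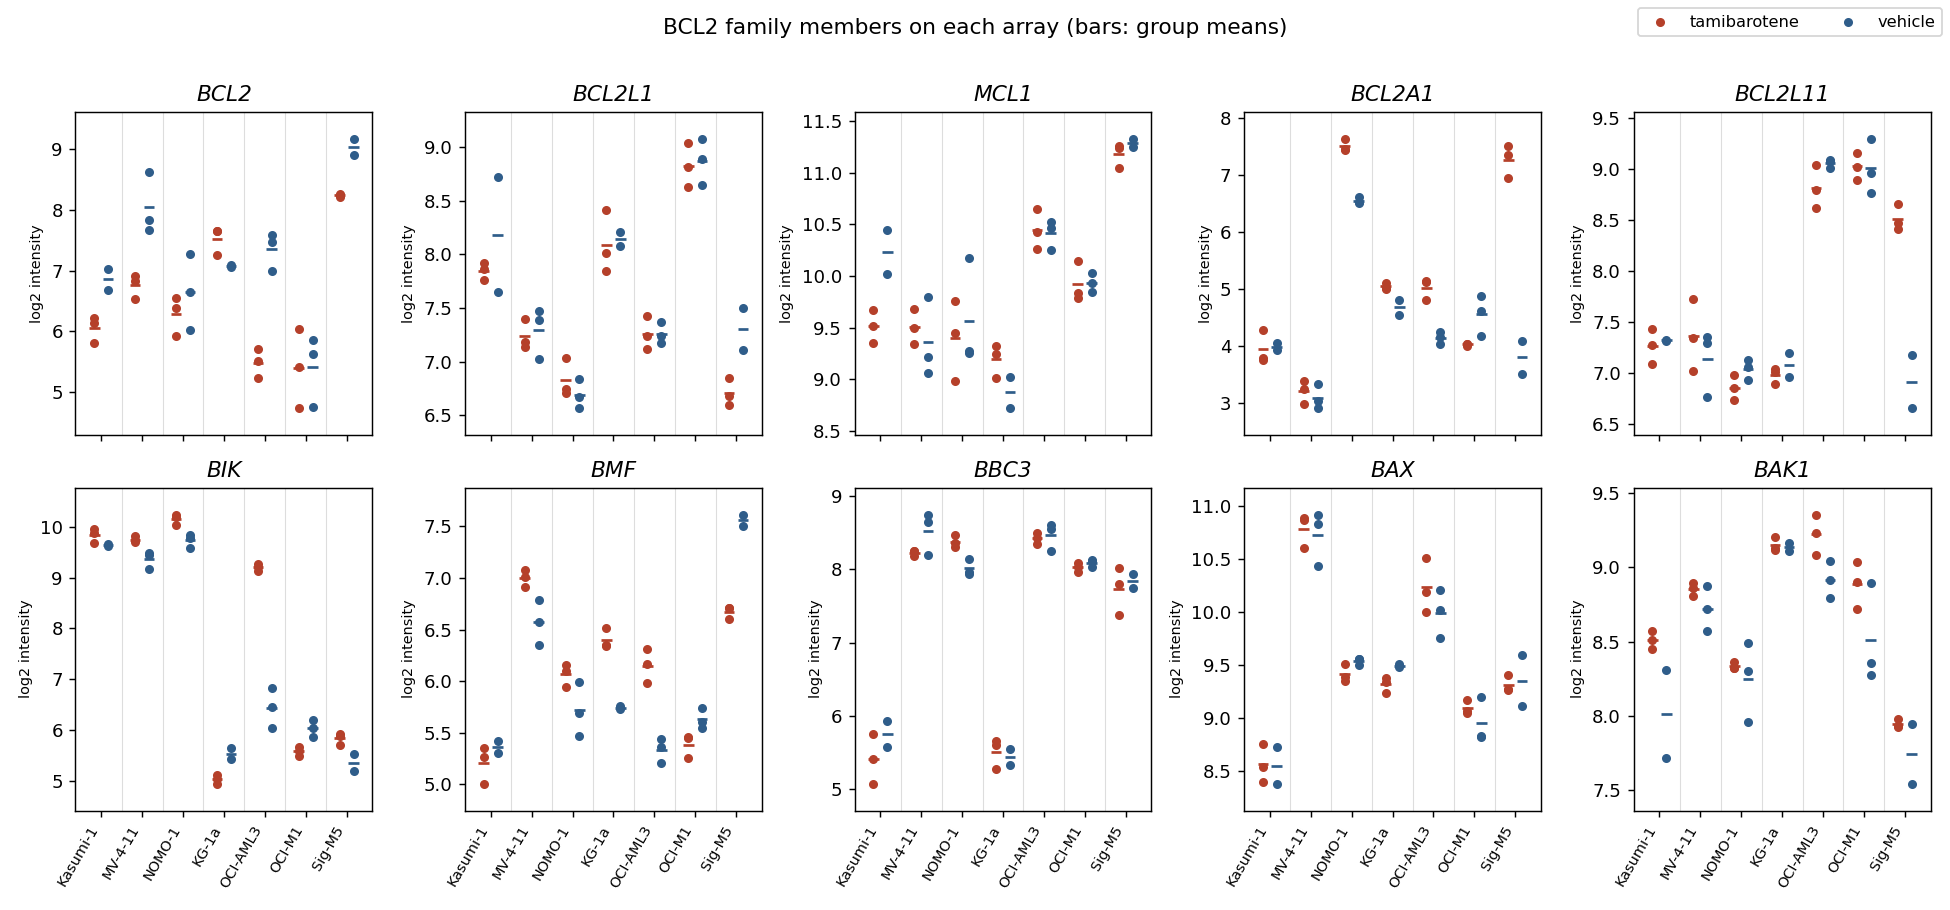
Log2 intensity of each member's main probe set on every array, with tamibarotene to the left of vehicle in each of the 7 lines. Points are arrays and bars are group means. BIK on the 3 OCI-AML3 tamibarotene arrays (9.13 to 9.27) sits far above its vehicle arrays (6.04 to 6.82).

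BCL2, the founding anti-apoptotic member, was lower after tamibarotene in 2 lines. OCI-AML3 tamibarotene arrays read 5.71, 5.22 and 5.52, against 7.46, 7.001 and 7.59 on vehicle arrays. Every treated array lay more than 1 log2 unit below every vehicle array. Arrays of the groups did not overlap in 27.6% of all pairs of gene and line, so a gap alone is common here. The difference of -1.87 ± 0.29 SE (adjusted p = 2.00e-05 in limma) is a 3.65-fold fall. MV-4-11 tamibarotene arrays read 6.83, 6.91 and 6.53, against 7.84, 8.62 and 7.67 on vehicle arrays, again without overlap. BCL2 fell there by 1.29 on the log2 scale (SE 0.29, adjusted p = 0.00311 in limma). Averaging all 6 BCL2 probe sets gave smaller falls, of -1.18 in OCI-AML3 and -0.77 in MV-4-11, both still called.

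In Sig-M5, BCL2 read 8.26, 8.24 and 8.22 with tamibarotene, against 9.16 and 8.90 with vehicle. The groups did not overlap, but the difference of -0.79 was not called (adjusted p = 0.0747 in limma). It was called when all 6 probe sets were averaged (-0.43, adjusted p = 0.0089) and in Sig-M5 fitted alone (adjusted p = 0.00282). KG-1a was the only line with a positive difference by the main probe set. Its arrays read 7.65, 7.66 and 7.26 with tamibarotene, against 7.05 and 7.09 with vehicle, which was not called (0.45, adjusted p = 0.689 in limma). The other 5 probe sets differed by -0.03 to 0.24 in KG-1a. All 6 together ranged from -0.07 to 0.12 in OCI-M1, from -0.71 to 0.19 in NOMO-1 and from -0.80 to 0.07 in Kasumi-1. Set directly against the mean of the other 6 lines, a contrast called for 7.41% of all gene-line pairs, the KG-1a response was 1.30 ± 0.35 SE higher (adjusted p = 0.0242 in limma) and the OCI-AML3 response 1.40 lower (-1.40 ± 0.32 SE, adjusted p = 0.00394). Differences in the remaining lines were -0.80 in Kasumi-1, -0.37 in NOMO-1 and -0.02 in OCI-M1, none called.

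The 6 BCL2 probe sets fell by unequal amounts. BCL2 transcripts end in alternative ways, and the longer protein, BCL2 alpha, carries the membrane anchor that BCL2 beta lacks. The 2 probe sets annotated to the alpha transcript moved by -1.87 and -1.97 in OCI-AML3 and by -1.29 and -1.30 in MV-4-11. The 2 annotated to the beta transcript moved by -0.53 and -0.28 in OCI-AML3 and by -0.39 and -0.40 in MV-4-11, all called but the -0.28. Whether the transcripts changed unequally was not tested, since the probe sets also differ in brightness and response. Of the 6, 5 were called down in OCI-AML3, 5 in MV-4-11 and 2 in Sig-M5.

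**Figure D3:**
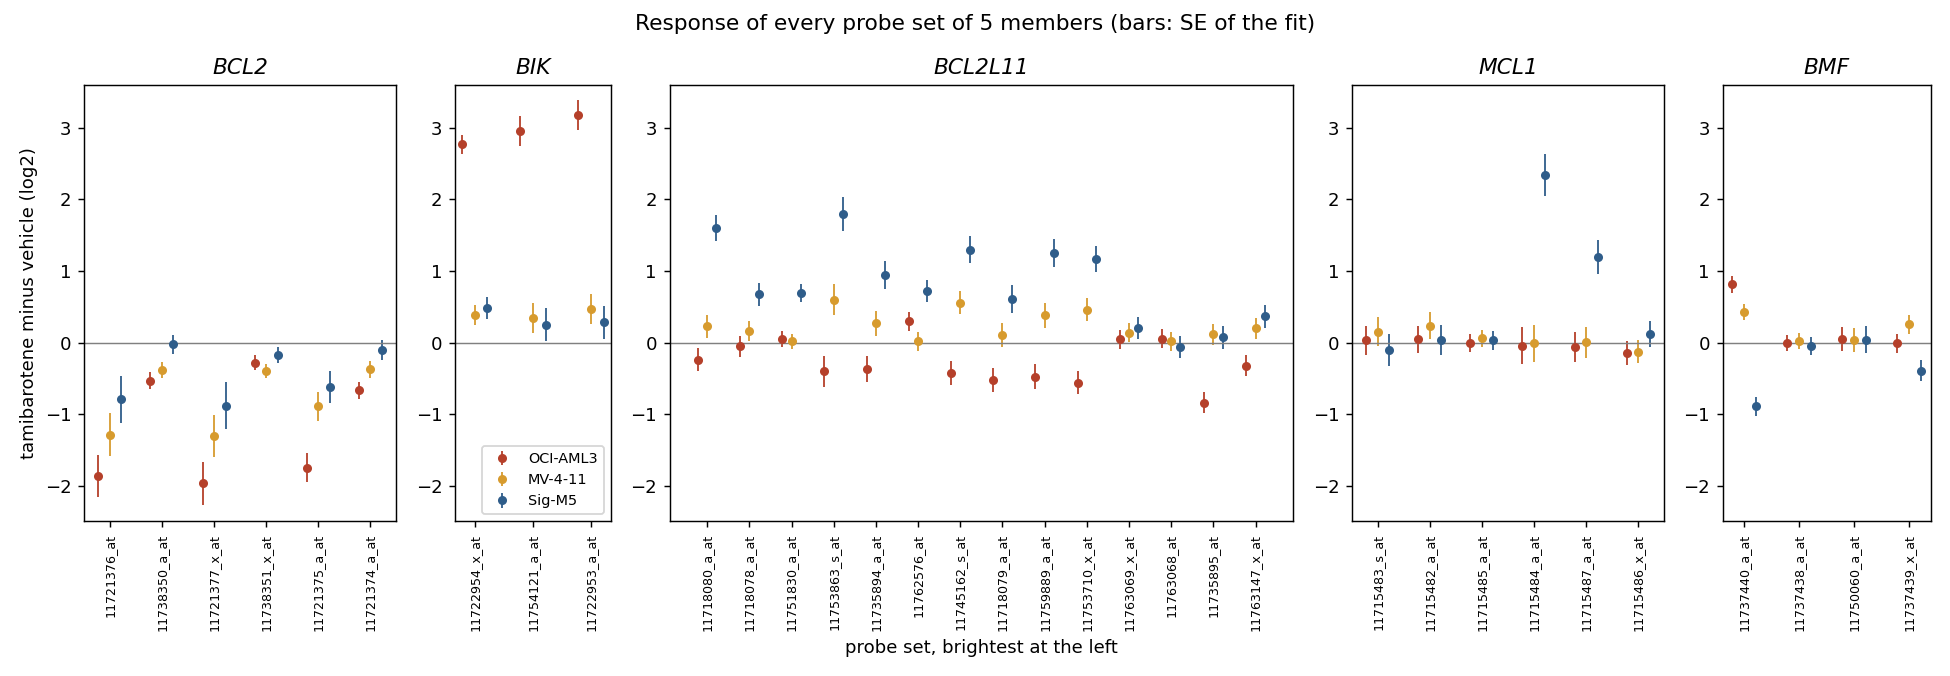
Tamibarotene minus vehicle (log2, bars are the standard error of the fit) for every probe set of the members shown, in OCI-AML3, MV-4-11 and Sig-M5. All 3 BIK probe sets lie between 2.77 and 3.18 in OCI-AML3, while the BMF rises in OCI-AML3 and MV-4-11 come from 1 of its 4 probe sets.

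BCL2L1, counted here as anti-apoptotic for its product BCL-XL, was called in Sig-M5 alone. Which transcript its main probe set reads, and which of them changed, was not tested, so the call is not one of BCL-XL in particular. Its Sig-M5 arrays read 6.68, 6.85 and 6.59 with tamibarotene, against 7.11 and 7.50 with vehicle. The difference of -0.60 ± 0.20 SE (adjusted p = 0.0283 in limma) was called, and a second, dimmer BCL2L1 probe set, 11759514_at, was also called down there (-0.62, adjusted p = 0.0322 over all probe sets), while the remaining one was not (-0.04). The mean of all 3 was called (-0.42, adjusted p = 0.0342). The call on the main probe set depended on single arrays. Without the vehicle array of the highest actin difference, vehicle replicate 2, it was -0.40 (adjusted p = 0.348), and with the actin difference as a covariate it was 0.16 (adjusted p = 0.767). Without tamibarotene replicate 1 or 3 it was -0.58 or -0.54 (adjusted p = 0.0603 and 0.0834). In Kasumi-1, BCL2L1 read 7.92, 7.86 and 7.76 with tamibarotene, against 8.72 and 7.65 with vehicle. The higher vehicle array was the one with the actin difference of 1.18, and the groups overlapped. The difference of -0.34 (adjusted p = 0.395) was not called, and its sign depended on which vehicle array was kept. It was 0.20 (adjusted p = 0.807) without that array, replicate 2, and -0.87 (adjusted p = 0.00626) with that array alone, without replicate 3. A line left with 1 vehicle array has no spread of its own there, and its spread is assumed to be that of the other groups.

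MCL1, a short-lived anti-apoptotic protein, was not called in any line by its main probe set. Its largest difference was in Kasumi-1, where arrays read 9.67, 9.36 and 9.52 with tamibarotene, against 10.45 and 10.02 with vehicle (-0.72 ± 0.23 SE, adjusted p = 0.0758 in limma). It was -0.50 (adjusted p = 0.561) without vehicle replicate 2, the array with the actin difference of 1.18, and -0.93 (adjusted p = 0.0329) with that vehicle array alone. The other 6 lines ranged from -0.17 to 0.32. The 6 MCL1 probe sets disagreed in Kasumi-1, where 11715482_a_at was called down (-0.95, adjusted p = 0.0157 over all probe sets) and the others ranged from -0.72 to 0.54, none called. They also disagreed in Sig-M5. The main one differed by -0.10, but 11715484_a_at read 8.84, 9.13 and 8.66 with tamibarotene, against 7.22 and 5.86 with vehicle (2.34 ± 0.29 SE, adjusted p = 4.45e-07 over all probe sets in limma). A further probe set, 11715487_a_at, read 7.998, 8.45 and 7.76 with tamibarotene, against 7.11 and 6.64 with vehicle, and was called up by 1.20. The other 4 ranged from -0.10 to 0.12. On both called probe sets the vehicle array with the actin difference of 1.89 was the lowest, the one with 0.81 next, and the treated arrays, at 0.31 to 0.34, the highest. The part of RNA integrity in these 2 probe sets was not tested. The mean of all 6 MCL1 probe sets turned the sign of the Sig-M5 difference to 0.60 (adjusted p = 0.00184 in limma).

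**Figure D4:**
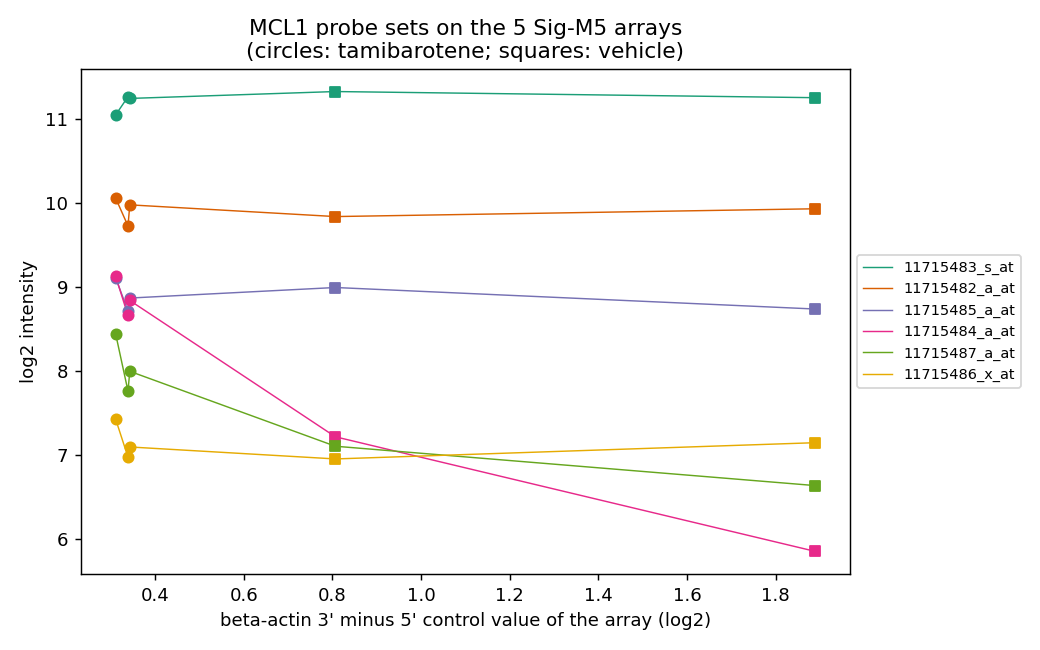
Log2 intensity of the 6 MCL1 probe sets on the Sig-M5 arrays, plotted against the array's beta-actin 3' minus 5' difference (log2), with tamibarotene and vehicle arrays marked. Of the 6, 4 are level across the arrays, and 11715484_a_at and 11715487_a_at are lowest on the vehicle array at 1.89.

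BCL2A1, an anti-apoptotic member found mainly in blood cells and a known target of NF-kB, rose in 3 lines. Sig-M5 arrays read 7.34, 7.50 and 6.94 with tamibarotene, against 4.09 and 3.51 with vehicle. The rise of 3.46 ± 0.18 SE (adjusted p = 4.26e-15 in limma) is 11.0-fold and lifts BCL2A1 from the dim end of the scale, so the fold depends on how dim the vehicle arrays truly were. NOMO-1 arrays, the line highest in vehicle, read 7.45, 7.63 and 7.44 with tamibarotene, against 6.52, 6.50 and 6.61 with vehicle (0.96 ± 0.16 SE, adjusted p = 0.000274). OCI-AML3 arrays read 5.14, 5.12 and 4.81 with tamibarotene, against 4.24, 4.15 and 4.04 with vehicle (0.88 ± 0.16 SE, adjusted p = 0.000237). In all 3 lines every treated array was above every vehicle array.

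Sig-M5 tamibarotene arrays reached a BCL2A1 mean of 7.26, near the NOMO-1 tamibarotene mean of 7.50. The Sig-M5 response exceeded the mean of the other 6 by 3.17 ± 0.20 SE (adjusted p = 4.54e-13 in limma). OCI-M1 arrays read lower, at 4.01, 4.04 and 4.04 with tamibarotene, against 4.18, 4.61 and 4.87 with vehicle. That difference of -0.53 was not called on its own (adjusted p = 0.178), though the OCI-M1 response lay below the mean of the others (-1.48 ± 0.18 SE, adjusted p = 1.60e-06). That mean includes the large Sig-M5 rise. The same contrast in limma was also called low for Kasumi-1 (-0.92, adjusted p = 0.00436) and MV-4-11 (-0.74, adjusted p = 0.00931). Without the 4 vehicle arrays of highest actin difference, which leaves OCI-M1 with vehicle replicate 1 alone, the OCI-M1 difference was -0.15 (adjusted p = 0.917). Without replicate 1, which leaves the OCI-M1 vehicle arrays with actin differences of 0.52 and 0.56, it was -0.71 (adjusted p = 0.0268). The only other BCL2A1 probe set was dim, with a mean of 2.75, and moved by 0.09 to 0.16 in the 3 lines with a rise. Averaging both probe sets therefore lowered the rises to 1.81 in Sig-M5, 0.53 in NOMO-1 and 0.48 in OCI-AML3, all still called.

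BCL2L11 encodes BIM, a BH3-only protein that binds every anti-apoptotic member and is known as a forkhead target. It rose in Sig-M5, where arrays read 8.47, 8.65 and 8.40 with tamibarotene, against 6.65 and 7.17 with vehicle. The rise was 1.60 ± 0.18 SE (adjusted p = 6.02e-08 in limma), or 3.03-fold, with no overlap. Of the 14 BCL2L11 probe sets, 10 were called up in Sig-M5, and the set ranged from -0.07 to 1.80. The mean of all 14 gave a rise of 0.81 (adjusted p = 1.34e-07). The Sig-M5 response was 1.65 ± 0.19 SE above the mean of the other 6 lines (adjusted p = 2.12e-07).

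No other line was called for the main BCL2L11 probe set. OCI-AML3, which had the highest vehicle level, read 9.03, 8.62 and 8.79 with tamibarotene, against 9.004, 9.08 and 9.08 with vehicle (-0.24, adjusted p = 0.487 in limma). There 3 of the 14 probe sets were called down, by 0.53 to 0.84, and the mean of all 14 was also called (-0.27, adjusted p = 0.0339). In MV-4-11, 1 of the 14 was called up.

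In Sig-M5, BCL2A1 and BCL2L11 rose by over 1 log2 unit each while BCL2 differed by -0.79. Their promoters are shown because these are an anti-apoptotic and a BH3-only gene that rose in the same line, together with BCL2, which fell elsewhere. Promoter sequences here are RefSeq's for GRCh38.p14, from 250 bases before the annotated start to 50 after it, on the gene's strand, and 8 of the 10 members matched (not BIK or MCL1). Capitals mark matches, on either strand, to 4 short motifs: the retinoic acid receptor core hexamer (spelled AGGTCA, also spelled AGTTCA, also spelled GGGTCA and also spelled GGTTCA), the GC box (GGGCGG), a forkhead core (GTAAACA) and the TATA box (TATAAA). Of 35116 promoters of the same length, 38.6% hold a receptor hexamer, 45.0% a GC box, 3.42% the forkhead core and 11.5% the TATA letters, and no spelling overlaps another in these windows. BCL2 lies at chr18:63319720-63320019 (minus strand), BCL2A1 at chr15:79971147-79971446 (minus strand) and BCL2L11 at chr2:111120664-111120963 (plus strand).
BCL2: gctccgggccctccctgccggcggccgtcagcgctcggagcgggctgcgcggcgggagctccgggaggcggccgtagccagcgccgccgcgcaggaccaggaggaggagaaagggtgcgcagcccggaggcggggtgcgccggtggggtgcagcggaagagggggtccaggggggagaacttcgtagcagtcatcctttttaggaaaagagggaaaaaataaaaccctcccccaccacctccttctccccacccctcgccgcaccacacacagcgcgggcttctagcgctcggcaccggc
BCL2A1: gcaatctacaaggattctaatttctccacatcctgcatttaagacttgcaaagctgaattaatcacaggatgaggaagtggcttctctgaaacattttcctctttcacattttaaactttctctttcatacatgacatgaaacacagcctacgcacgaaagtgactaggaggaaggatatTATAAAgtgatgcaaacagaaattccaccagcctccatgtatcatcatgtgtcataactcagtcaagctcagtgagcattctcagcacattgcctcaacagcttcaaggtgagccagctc
BCL2L11: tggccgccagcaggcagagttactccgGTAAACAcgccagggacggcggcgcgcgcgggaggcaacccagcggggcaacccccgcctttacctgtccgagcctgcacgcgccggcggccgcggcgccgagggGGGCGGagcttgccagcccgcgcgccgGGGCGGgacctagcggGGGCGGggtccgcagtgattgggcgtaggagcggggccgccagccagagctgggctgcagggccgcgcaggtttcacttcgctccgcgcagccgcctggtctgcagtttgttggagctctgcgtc
The BCL2A1 window holds TATAAA at bases 181 to 186 and no receptor hexamer. BCL2L11 holds GTAAACA at bases 28 to 34 and GC boxes starting at bases 133, 160 and 176. BCL2 holds none of the 4 motifs. A match is a description of these letters, and its absence says only that they are not in this window.

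BIK, a BH3-only protein of the endoplasmic reticulum, rose in OCI-AML3 and, less steadily, in Sig-M5. OCI-AML3 arrays read 9.21, 9.27 and 9.13 with tamibarotene, against 6.04, 6.82 and 6.44 with vehicle. The rise of 2.77 ± 0.13 SE was 6.83-fold (adjusted p = 3.19e-16 in limma), with no overlap, and the other 2 BIK probe sets rose by 2.96 and 3.18. The treated OCI-AML3 mean of 9.20 came close to the vehicle means of the 3 BIK-high lines, the lowest of which was MV-4-11 at 9.36. The OCI-AML3 response exceeded the mean of the other 6 lines by 2.68 ± 0.14 SE (adjusted p = 1.76e-14).

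In Sig-M5, BIK read 5.92, 5.70 and 5.88 with tamibarotene, against 5.18 and 5.52 with vehicle. The difference of 0.48 ± 0.15 SE was called (adjusted p = 0.0144 in limma). Without vehicle replicate 1, which leaves 1 vehicle array, it was 0.31. The call was lost with the actin difference as a covariate (0.58, adjusted p = 0.0952) and with array weights (0.50, adjusted p = 0.0931). It was also lost with the mean of all 3 BIK probe sets (0.34, adjusted p = 0.115). The other 2 BIK probe sets, at 0.25 and 0.28, were not called. In the BIK-high lines the treated arrays also lay above all vehicle arrays without being called. MV-4-11 read 9.81, 9.74 and 9.70 with tamibarotene, against 9.49, 9.17 and 9.44 with vehicle (0.38, adjusted p = 0.0793). NOMO-1 read 10.24, 10.20 and 10.04 with tamibarotene, against 9.79, 9.85 and 9.58 with vehicle (0.42, adjusted p = 0.0797). BIK in both lines was called when OCI-AML3 vehicle replicate 1 or 2 was left out, with the same differences, and in NOMO-1 also with array weights (0.40, adjusted p = 0.0207).

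KG-1a and OCI-M1, 2 of the BIK-low lines, read lower for the main BIK probe set on every tamibarotene array than on any vehicle array. KG-1a read 5.12, 5.03 and 4.94 with tamibarotene, against 5.43 and 5.63 with vehicle (-0.50, adjusted p = 0.0606 in limma). OCI-M1 read 5.67, 5.58 and 5.48 with tamibarotene, against 6.19, 5.86 and 6.03 with vehicle (-0.45, adjusted p = 0.124). Neither was called in the model of all 39 arrays. Both were called without OCI-AML3 vehicle replicate 1 or 2, and KG-1a also when fitted alone (adjusted p = 0.0413) and with array weights (-0.49, adjusted p = 0.0033). The other 2 BIK probe sets differed by -0.61 and 0.18 in KG-1a and by -0.28 and -0.19 in OCI-M1, none called. Against the mean of the other 6 lines, the BIK response was lower in KG-1a (-1.14 ± 0.16 SE, adjusted p = 9.92e-06) and in OCI-M1 (-1.08 ± 0.14 SE, adjusted p = 8.06e-06), and both means include the large OCI-AML3 rise.

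BMF, a BH3-only protein tied to the actin cytoskeleton, was the only member called in both directions. It rose in OCI-AML3, where arrays read 6.17, 5.98 and 6.31 with tamibarotene, against 5.21, 5.36 and 5.44 with vehicle (0.82 ± 0.12 SE, adjusted p = 4.24e-06 in limma). KG-1a arrays read 6.35, 6.34 and 6.51 with tamibarotene, against 5.76 and 5.73 with vehicle (0.66 ± 0.13 SE, adjusted p = 0.00182). MV-4-11 arrays read 6.91, 7.01 and 7.07 with tamibarotene, against 6.78, 6.35 and 6.57 with vehicle (0.43 ± 0.12 SE, adjusted p = 0.0167). In each of these lines the groups did not overlap.

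BMF fell in Sig-M5, the line with its highest vehicle level, to 6.71, 6.60 and 6.71 with tamibarotene, against 7.51 and 7.61 with vehicle (-0.89 ± 0.13 SE, adjusted p = 4.90e-06 in limma). The Sig-M5 response lay 1.20 below the mean of the other 6 (-1.20 ± 0.14 SE, adjusted p = 2.12e-07), while the OCI-AML3 response lay 0.79 above (adjusted p = 5.27e-05) and the KG-1a response 0.61 above (adjusted p = 0.00649). The rises rest on 1 probe set of 4, 11737440_a_at. The other 3 moved by -0.01 to 0.26 in those lines, and the mean of all 4 was 0.21 in OCI-AML3, 0.24 in KG-1a and 0.18 in MV-4-11, none called (adjusted p = 0.183, 0.335 and 0.350). In Sig-M5, 2 of the 4 were called down, and the mean of all 4 was -0.32 (adjusted p = 0.0243). The MV-4-11 rise was also lost without tamibarotene replicate 2 or 3 (0.42 and 0.39) and without vehicle replicate 2 (0.32). BMF has 2 promoter windows in the RefSeq table. The one at chr15:40106917-40107216 (minus strand, GRCh38.p14) is shown because it is the window, among the 3 genes above and BMF, that holds the receptor hexamer.
BMF: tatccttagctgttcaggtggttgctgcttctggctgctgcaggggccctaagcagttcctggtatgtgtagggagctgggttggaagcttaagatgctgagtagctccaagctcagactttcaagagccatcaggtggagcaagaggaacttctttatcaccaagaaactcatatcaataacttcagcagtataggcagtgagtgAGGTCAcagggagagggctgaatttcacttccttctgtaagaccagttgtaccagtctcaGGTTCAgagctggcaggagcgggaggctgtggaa
It holds AGGTCA at bases 207 to 212 and GGTTCA at bases 267 to 272, in capitals. The other BMF window has GC boxes and no receptor hexamer. The BAX window, not shown, also holds 2 receptor hexamers, and 1 of the BCL2L1 windows holds 1.

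BBC3, which encodes the p53 target PUMA, ranged from -0.34 to 0.36 over the 7 lines and was not called in any. Its highest difference was in NOMO-1, where arrays read 8.47, 8.36 and 8.30 with tamibarotene, against 8.15, 7.94 and 7.96 with vehicle (0.36, adjusted p = 0.272 in limma). The low level in Kasumi-1 and KG-1a held on tamibarotene arrays, with means of 5.41 and 5.51.

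Neither effector was called in any line by its main probe set. BAX differences lay between -0.18 (KG-1a) and 0.24 (OCI-AML3). The main BAK1 probe set ranged from 0.01 in KG-1a to 0.49 in Kasumi-1 and was positive in 7 of 7 lines. All 5 BAK1 probe sets together ranged from -0.47 to 0.20 in Sig-M5 and from -0.15 to 0.49 in Kasumi-1. They ranged from -0.16 to 0.26 in MV-4-11 and from -0.09 to 0.02 in KG-1a, and all were positive in NOMO-1, OCI-AML3 and OCI-M1. Kasumi-1 BAK1 read 8.51, 8.57 and 8.45 with tamibarotene, against 7.72 and 8.31 with vehicle (adjusted p = 0.0866 in limma), and the lower vehicle array was the one with the actin difference of 1.18. The BAK1 difference was 0.20 (adjusted p = 0.769) without that array and 0.79 (adjusted p = 0.00609) with it as the only vehicle array. OCI-AML3 BAK1 read 9.36, 9.23 and 9.08 with tamibarotene, against 8.92, 9.04 and 8.80 with vehicle (0.31, adjusted p = 0.216). Beyond the main probe sets, 1 BAX probe set (-0.39) and 1 BAK1 probe set (-0.47) were called down in Sig-M5.

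Over the unweighted mean of the 7 lines, 5 members rose and 1 fell, where 6.71% of all genes rose and 12.4% fell. BCL2 fell by 0.67 on average (SE 0.12, adjusted p = 6.96e-05 in limma). BCL2A1 averaged 0.74 ± 0.07 SE (adjusted p = 3.04e-10) and BIK 0.47 ± 0.05 SE (adjusted p = 3.95e-08). These means do not describe a typical line, since 1 line carried most of the BCL2A1 and BIK sums. BAK1 averaged 0.23 ± 0.06 SE (adjusted p = 0.0035) and had the narrowest range of responses among the members whose mean was called, from 0.01 to 0.49. With the actin difference as a covariate it was 0.08 (adjusted p = 0.384), and without the 4 vehicle arrays of highest actin difference 0.10 (adjusted p = 0.166). BMF averaged 0.14 ± 0.05 SE (adjusted p = 0.0353) and BCL2L11 0.18 ± 0.06 SE (adjusted p = 0.0447). The BCL2L11 mean turned to -0.05 (adjusted p = 0.774) without Kasumi-1 and Sig-M5.

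The response itself differed between lines for 5 of 10 members in the moderated F test, where 27.4% of all genes were called. These were BIK (adjusted p = 3.54e-13 in limma), BCL2A1 (4.66e-12), BMF (5.05e-08), BCL2L11 (9.87e-06) and BCL2 (0.00186). BAX, BAK1, BBC3, BCL2L1 and MCL1 were not called, which does not show that their responses were alike.

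Around the 10 members, 51 other genes of the cell death pathway were listed and 47 of them were measured. Of these 47, Sig-M5 had 7 up (14.9%) and 8 down (17%), where 8.5% of all genes rose and 18.4% fell, so the share of falls was near that of all genes. OCI-AML3 had 5 up (10.6%) and 2 down (4.26%), where 5.5% rose and 6.36% fell. MV-4-11 had 2 up (4.26%) and 3 down (6.38%), where 4.32% rose and 3.4% fell, and Kasumi-1 had 2 up and 2 down (4.26% each), where 0.48% rose and 2.36% fell. NOMO-1 and KG-1a had 1 up (2.13%) and 2 down (4.26%) each, where 2.77% rose and 0.711% fell in NOMO-1, and 1.21% rose and 1.88% fell in KG-1a. OCI-M1 had 1 down (2.13%), where 0.386% of all genes fell. CASP8, the initiator caspase of death receptors, rose in 5 lines, with averages of 7.61 on tamibarotene arrays and 6.61 on vehicle arrays of Sig-M5 (1.002 ± 0.12 SE, adjusted p = 1.61e-07 in limma). Its rises in KG-1a, NOMO-1, OCI-AML3 and MV-4-11 were 0.58, 0.56, 0.43 and 0.38. CASP9, the initiator caspase of the apoptosome, rose in 4 lines, by 0.59 in OCI-AML3, 0.42 in Kasumi-1 and 0.36 in MV-4-11 among them. Of the same list, CASP2 (-0.79) and the executioner caspase gene CASP6 (-0.44) fell in Sig-M5, and CYCS, which encodes cytochrome c, fell in OCI-AML3 (-0.44).

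Among relatives of the family, BNIP3, a hypoxia-induced mitochondrial protein, fell in KG-1a (-0.96), OCI-AML3 (-0.61) and OCI-M1 (-0.51). PMAIP1, which encodes the BH3-only protein NOXA that binds MCL1, rose in Sig-M5 to an average of 9.36 on tamibarotene arrays, against 8.07 on vehicle arrays (1.28 ± 0.20 SE, adjusted p = 1.25e-05 in limma). BAD, a BH3-only protein controlled by phosphorylation, fell there (-0.72), and BCL2L2, which encodes anti-apoptotic BCL-W, rose (0.66). BCL2L13 rose in OCI-AML3 (0.36). The death ligand gene TNFSF10 (TRAIL) fell in Sig-M5 (-1.22) and NOMO-1 (-0.84), and FAS fell in NOMO-1 (-0.86). The TRAIL receptor gene TNFRSF10B fell in MV-4-11 (-0.39) and KG-1a (-0.52), the TRAIL decoy receptor gene TNFRSF10D (-1.08) and the TNF receptor gene TNFRSF1A (-0.57) fell in Sig-M5, and CFLAR, which encodes the caspase-8 inhibitor FLIP, rose in OCI-AML3 (0.33). Of the caspase inhibitors, XIAP rose in OCI-AML3 (0.84 ± 0.25 SE, adjusted p = 0.0193), and BIRC5, which encodes survivin, rose in Kasumi-1 (0.44) and fell in MV-4-11 (-0.33). Of the factors known to act on BH3-only genes, DDIT3 rose (0.91) in Sig-M5, E2F1 fell in Sig-M5 (-1.28) and MV-4-11 (-0.43), and FOXO1 fell in Kasumi-1 (-0.91). HUWE1, which encodes a ubiquitin ligase of MCL1, also fell in Kasumi-1 (-0.63).

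Genes whose 14 group means followed a member most closely were ranked by Pearson's r among 6833 genes with an SD of at least 0.5, as a description in which all points share the same arrays. BIK was followed most closely by IDH2 (r = 0.94), MILR1 (0.93) and RNASET2 (0.93). BBC3 was followed by BEX3 (r = 0.99), LCMT2 (0.96) and VIM (0.96), and BCL2L1 by the erythroid and stem cell factor TAL1 (0.96), DLC1 (0.95) and MLLT11 (0.95). MCL1 was followed by EXOC8 (r = 0.97), PLEKHA8P1 (0.96) and CDK12 (0.95), and BCL2L11 by LIN9 (0.88), FKBP1B (0.87) and RADX (0.86). BMF was followed by PTPN3 (r = 0.89), PNPLA6 (0.87) and ZIC2 (0.86), BAX by HERPUD1 (0.92), BCKDHA (0.90) and CFAP184 (0.90), and BAK1 by ULK3 (0.95), NXT1 (0.95) and DEDD (0.93). BCL2 was followed by USP31 (r = 0.87), GRAMD1B (0.85) and ABCB10 (0.83), and BCL2A1 by ORM2 (0.88), PPFIA4 (0.87) and TMEM52B (0.86).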

How the data were processed

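Tamibarotene and vehicle arrays of 7 cell lines were compared. The deposited values are log2 intensities. Per the submitters' processing notes they were made with RMA and affy (versions not given), and no further normalization was applied. They ran from 1.68 to 14.43. Of 49395 probe sets, 44988 named 1 gene symbol, 1832 several and 2473 none, and 102 were controls. Whether the arrays were normalized in a single run is not given in the sources used here. Within a group, no 2 arrays correlated above 0.9976, so none was a copy.

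All 39 arrays entered 1 linear model with 14 means, 1 for each line and arm (limma version 3.58.1, its lmFit and eBayes functions, R version 4.3.3, data.table package version 1.17.8). The residual degrees of freedom were 25. Contrasts took tamibarotene minus vehicle for every line, their mean, a moderated F test (6 degrees of freedom) between lines, each line against the other 6, and the vehicle groups in pairs. Benjamini-Hochberg adjustment ran over 18132 genes, or over all probe sets where single probe sets are given. The model was tested on simulated data. Figures used Python 3.11.15, pandas 2.3.3 and matplotlib 3.10.9. Precision is limited by the number of arrays.

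The members and the lists of other pathway genes and markers were chosen with earlier results of these data known. All 10 members are named in every line, of each other list up to 3 called genes a line with the smallest adjusted p, and for each member up to 3 genes with the highest correlation. Replicate numbers are shared between arms. Deviations from the group means of same-numbered arrays correlated above 0.1 in every pair only in OCI-M1 (0.12 to 0.37), where a replicate block changed no call, so the block was an alternative. Some pairs correlated more strongly in other lines, with 0.0995 to 0.67 in MV-4-11, 0.01 to 0.57 in NOMO-1 and -0.04 to 0.46 in OCI-AML3. The alternatives were leaving out each array, the mean of a gene's probe sets, every probe set tested, no dim genes, quantile normalization, array weights, a trended robust prior, the actin difference as a covariate, a replicate block, lines fitted alone, and dropping Kasumi-1 and Sig-M5. Leaving out the 4 vehicle arrays of highest actin difference was added after seeing the data.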

Additional observations from a re-analysis of the deposited data

Results flagged for a closer look

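For 5 members the response to tamibarotene differed between the 7 lines by the moderated F test of the difference itself. The highest and the lowest response lay 3.99 log2 apart for BCL2A1 (Sig-M5 against OCI-M1) and 3.27 for BIK (OCI-AML3 against KG-1a). They lay 2.32 apart for BCL2 (KG-1a against OCI-AML3), 1.84 for BCL2L11 (Sig-M5 against OCI-AML3) and 1.705 for BMF (OCI-AML3 against Sig-M5). Across all genes the same test called 27.4%.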

How the results depend on the processing

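Of the 13 calls in a line, 8 held under all 49 alternatives: BCL2 in OCI-AML3 and MV-4-11, BCL2A1 in Sig-M5, NOMO-1 and OCI-AML3, BIK in OCI-AML3, and BCL2L11 and BMF in Sig-M5. Of the 57 values not called, 40 were called under none. Leaving out 1 array at a time gave 0 to 3 members called in Kasumi-1 (3 without vehicle replicate 3, with 1 vehicle array left and its spread assumed), 1 to 3 in MV-4-11, 1 to 2 in NOMO-1, 1 to 2 in KG-1a and 0 to 2 in OCI-M1 (2 without vehicle replicate 1). In Sig-M5 the BCL2L1 call was lost without tamibarotene replicate 1 or 3. With 1 vehicle array left in Sig-M5, BCL2L1 was -0.40 without vehicle replicate 2, and BIK was 0.31 without vehicle replicate 1. No call in OCI-AML3 depended on a single array. With the mean of all probe sets, MV-4-11 had 1 and KG-1a 0 called, and MCL1 in Sig-M5 turned to 0.60. Quantile normalization left 1 in MV-4-11. Array weights gave 3 in NOMO-1, 2 in KG-1a, 2 in OCI-M1 and 3 in Sig-M5. The actin covariate gave 3 in Sig-M5 and turned BCL2L1 there to 0.16. The replicate block gave 3 in Kasumi-1 (BCL2, MCL1 and BBC3) and added BCL2 in Sig-M5. Both lines have only 2 same-numbered pairs, and the labels do not say whether equal numbers mark a shared culture or day. Lines fitted alone gave 1 in MV-4-11 and 2 in KG-1a. The mean of lines for BCL2L11 turned to -0.055 without Kasumi-1 and Sig-M5, and its call was lost in 27 of 48 alternatives; that of BMF was lost in 18 of 48. The causes of these shifts were not tested. Dim signals limit BCL2A1 in Sig-M5, MV-4-11 and Kasumi-1 vehicle arrays, and 2 vehicle arrays in 3 lines limit every difference there.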
